A study of Mus musculus with 6 samples.

Results

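The aryl hydrocarbon receptor axis was taken as 6 genes, Ahr, Arnt, Ahrr, Tiparp, Cyp1a1 and Cyp1b1, and their rows were found in the count table by Ensembl identifier. All 6 were among its 20409 features. The set was chosen by the levels of its CYP1 genes in these libraries, the difference of Cyp1b1 between the groups and the spread of Cyp1a1 between libraries, so the values of both are given as a description without a test. The other 4 members were compared between the groups.

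Villus epithelium of the mouse duodenum was profiled by bulk RNA-seq in 3 double mutant (DM) and 3 wild-type (WT) mice, with 1 library per mouse. The DM mice carried Smad4 fl/fl and Ctnnb exon3 fl/wt alleles on a C57BL6-enriched background, and tamoxifen had switched on Villin-CreERT2, a recombinase active throughout the intestinal epithelium, a week before collection. The result was Smad4 loss of function (LOF) and β-catenin gain of function (GOF). The WT mice were littermates that received no tamoxifen, so tamoxifen exposure and the mutations cannot be told apart. The ages of the mice were not given in the sources used here. Replicate 1 was a male and replicates 2 and 3 were females in both groups, which leaves 1 male per group. The libraries are called WT1 to WT3 and DM1 to DM3 after these replicate numbers.

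AHR is a transcription factor of the bHLH-PAS family that waits in the cytoplasm with a chaperone complex. On binding a ligand, such as dioxin, a plant indole from the diet or a tryptophan metabolite from microbes, it enters the nucleus, pairs with ARNT and binds dioxin-response elements of its target genes. Cyp1a1 and Cyp1b1, the best known targets, encode cytochrome P450 enzymes that oxidize many of these ligands, while AHRR and TIPARP, also encoded by targets, restrain the receptor. In the intestine the pathway is known for barrier function, for the upkeep of intraepithelial lymphocytes and innate lymphoid cells, and for clearance of dietary ligands by CYP1 enzymes in enterocytes.

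The table gave raw counts, with library totals of 19678507 to 26337318. Levels are given as CPM, counts scaled to a fixed library total after correction of library sizes by trimmed means of M values (TMM), and 3 counts, the limit a count of 0 allows, stood at 0.125 to 0.163 CPM per library. These limits and all counting intervals cover counting error only. Of 13346 genes that passed the filter on low counts, edgeR's quasi-likelihood test called 2632 higher and 2273 lower in DM villi at an adjusted p under 0.05, 36.8% of those tested, and scaling by library size alone gave 3732 higher and 1425 lower. Of the tested genes, 708 (5.30%) were called with an absolute log2 fold change of at least 2. Of the members, 5 passed the filter, and none outside the CYP1 genes was called. Smad4, the deleted gene, was at 120, 180 and 145 CPM in WT and at 26.1, 36.8 and 32.1 CPM in DM, a log2 fold change of -2.22 ± 0.19 (SE, n = 3 per group, adjusted p = 0.000145), in the direction its label gives. Summed markers of enterocytes and epithelium reached 31620 to 34830 CPM in WT and 19840 to 20760 CPM in DM, with 5 of 8 genes lower and none higher. WT1 stood apart from the other WT libraries. Across genes its log2 CPM correlated with WT2 and WT3 at r = 0.958 and 0.957 against 0.984 between WT2 and WT3, and its summed goblet cell markers were at 113.5 CPM against 13900 in WT2 and 12670 in WT3. Values of members that WT1 moves by over 1.5 times are therefore given with and without it.

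The DNA before the members was searched for the dioxin-response core GCGTG and for the longer form TNGCGTG, which contains the core, on both strands. In the 1500 bases before the annotated start (mm9), Cyp1a1 held 12 cores and Cyp1b1 held 10, against a median of 1 over 15836 protein-coding genes. As many cores or more stood before 0.0884% of these genes for Cyp1a1 and 0.234% for Cyp1b1. Ahrr and Tiparp held 6 each, a number reached by 3.06% of genes, while Arnt held 1 and Ahr 0. The longer form occurred 7 times before Cyp1a1, the only gene of those scanned with so many, 2 times before Cyp1b1 and Ahrr and once before Tiparp. A match is a description of the letters and not a site of binding. The 300-base stretches richest in the longer form, and among those in cores, lay at chr9:57544330-57544629 on the plus strand, 1090 to 791 bases before the start of Cyp1a1, and at chr17:80115075-80115374 on the minus strand, 973 to 674 bases before the start of Cyp1b1. They are shown because these genes carried the largest differences between libraries among the members, with each core in capitals as GCGTG or its reverse complement CACGC. Both stretches held 5 cores, of which 4 before Cyp1a1 and 2 before Cyp1b1 were part of the longer form, and the last cores of the Cyp1b1 stretch overlap on opposite strands.
Cyp1a1: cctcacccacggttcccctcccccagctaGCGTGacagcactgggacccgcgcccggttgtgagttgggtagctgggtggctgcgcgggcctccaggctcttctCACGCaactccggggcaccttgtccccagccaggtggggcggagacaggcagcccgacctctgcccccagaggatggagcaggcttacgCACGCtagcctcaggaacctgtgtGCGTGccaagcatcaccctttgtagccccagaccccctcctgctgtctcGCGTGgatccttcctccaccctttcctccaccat
Cyp1b1: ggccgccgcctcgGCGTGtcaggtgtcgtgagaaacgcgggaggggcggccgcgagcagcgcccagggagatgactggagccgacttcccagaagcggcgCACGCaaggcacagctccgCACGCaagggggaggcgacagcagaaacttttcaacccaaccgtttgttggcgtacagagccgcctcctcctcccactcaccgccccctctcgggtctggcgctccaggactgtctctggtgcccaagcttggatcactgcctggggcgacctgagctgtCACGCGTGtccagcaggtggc

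The RefSeq promoter table (GRCm38.p6) held 5 of the 6 members, with no entry for Ahr. In the 250 bases before the RefSeq start, Ahrr held 3 cores and the other listed members 1 each, and 28.2% of 32851 such windows held at least 1. Ahrr was the only member whose window held the longer form, which 4.1% of all windows held. Its window is printed because it carried the most cores of the members this close to the start, and it matched mm9 at chr13:74429780-74430029 on the minus strand.
Ahrr: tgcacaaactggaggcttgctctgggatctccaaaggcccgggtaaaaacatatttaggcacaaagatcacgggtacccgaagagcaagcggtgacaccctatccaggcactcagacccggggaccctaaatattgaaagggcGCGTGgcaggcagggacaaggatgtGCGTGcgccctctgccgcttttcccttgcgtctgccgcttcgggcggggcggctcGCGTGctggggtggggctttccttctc

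**Figure D1:**
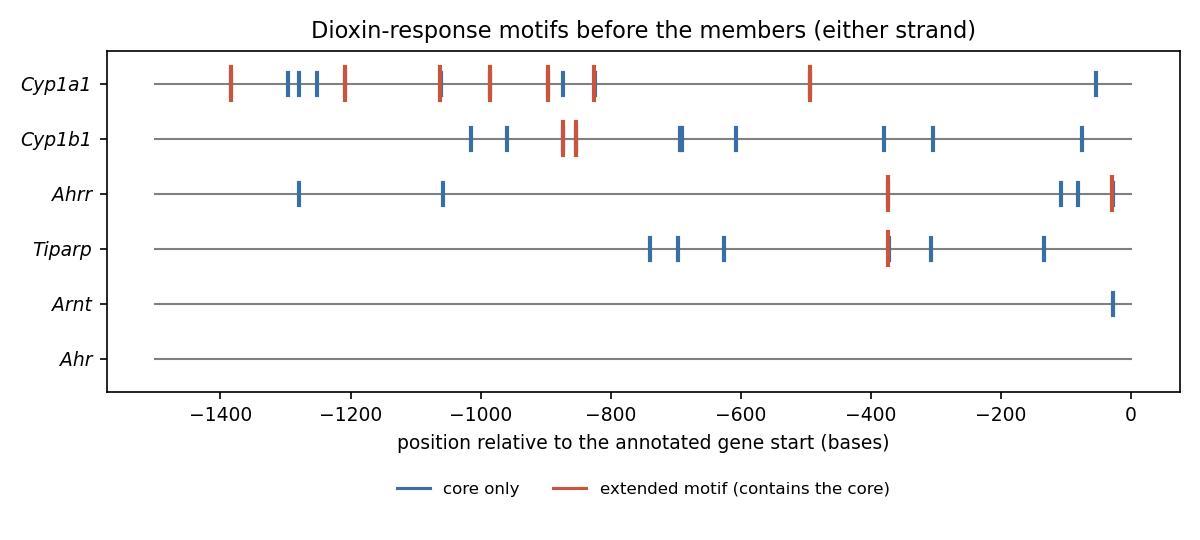
Dioxin-response motifs in the 1500 bases before the annotated start of each member, by distance from the start in bases on the x axis and by gene on the y axis. Short blue ticks are GCGTG cores and taller red ticks the longer TNGCGTG form on either strand. The ticks crowd before Cyp1a1 (12 cores) and Cyp1b1 (10), and none stands before Ahr.

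The receptor and its partner did not pass the test for a difference between DM and WT villi. Ahr (ENSMUSG00000019256, mm9 chr12:36182646-36219710, minus strand) was at 29.6, 37.3 and 30.6 CPM in WT and at 33.5, 23.8 and 21.9 CPM in DM. DM1 lay within the WT range and the other DM libraries below it, whereas 52.4% of tested genes had groups that did not overlap. The means were 32.5 ± 4.18 and 26.4 ± 6.21 CPM (SD, n = 3 per group), with a log2 fold change of -0.30 ± 0.18 (SE, adjusted p = 0.23). Leaving out DM1, the male mutant, gave -0.50 and brought Ahr past the threshold (adjusted p = 0.0418), whereas its adjusted p was 0.17 to 0.535 when any other library was left out. The gene overlaps the predicted gene Gm17436 on the opposite strand, which was not in the table.

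Arnt, the obligate partner of AHR and also of the hypoxia-inducible factors (ENSMUSG00000015522, chr3:95238310-95301162, plus strand), was at 45.0, 51.9 and 49.2 CPM in WT and at 49.4, 38.2 and 41.3 CPM in DM. As for Ahr, DM1 lay among the WT libraries and DM2 and DM3 below all 3 of them. The group means were 48.7 ± 3.46 and 43.0 ± 5.79 CPM (SD, n = 3 per group). The log2 fold change of -0.18 ± 0.13 (SE, adjusted p = 0.312) turned to 0.01 under scaling by library size alone, which raised the median log2 fold change of all tested genes from 0.02 to 0.22.

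Of the repressors of the receptor, Tiparp was not called and Ahrr was too low to test. Tiparp, a mono-ADP-ribosyltransferase that modifies AHR (ENSMUSG00000034640, chr3:65332332-65359067, plus strand), was at 38.9, 27.8 and 24.8 CPM in WT and at 29.3, 21.9 and 21.9 CPM in DM. The male library was the highest of each group, and the groups overlapped through DM1. The means of 30.5 ± 7.42 and 24.3 ± 4.25 CPM (SD, n = 3 per group) gave a log2 fold change of -0.33 ± 0.20 (SE, adjusted p = 0.229), with -0.31 under sex as a covariate (adjusted p = 0.0771) and -0.11 without WT1 (adjusted p = 0.638). The start of Tiparp overlaps 4931440P22Rik on the other strand, which had 7 to 11 counts in every library, and the strand setting of the counting was not given in the sources used here.

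Ahrr, which competes with AHR for ARNT (ENSMUSG00000021575, chr13:74348566-74429779, minus strand), had 1, 7 and 6 counts in WT and 7, 12 and 6 counts in DM. All of these were near the 3-count limit, and the gene did not pass the filter. Fitted without the filter, its log2 fold change was 0.72 ± 0.84 (SE, adjusted p = 0.584), so a difference was not detectable at this depth. Its promoter window, printed above, held the most cores of the 5 members looked up.

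Cyp1b1 was not detected in any WT library and was detected in every DM library. The gene (ENSMUSG00000024087, chr17:80106234-80114401, minus strand) had 0 counts in each WT library and 243, 137 and 98 counts in DM, or 11.4, 6.35 and 4.65 CPM. Its DM mean of 7.47 ± 3.51 CPM (SD, n = 3) was 51.0 times the mean 3-count limit of the WT libraries, 0.147 CPM. This ratio is a lower bound of the fold over WT. Taken singly, DM1 was 77.8 times, DM2 43.3 times and DM3 31.7 times that limit. Within the mutants DM1 was 2.45 times DM3 (95% exact interval 1.93 to 3.13) and 1.80 times DM2 (1.45 to 2.23). Among the females alone the DM mean was 35.0 times the WT limit. Cyp1b1 passed the filter only through the DM libraries, and no call is given for it. Of all tested genes, 19.7% were called higher in DM.

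Cyp1a1 (ENSMUSG00000032315, chr9:57545420-57551629, plus strand) spread over several orders of magnitude, and the spread within WT was wider than that between the groups. It had 8407, 4 and 1 counts in WT and 711, 453 and 95 counts in DM. These counts correspond to 350, 0.218 and 0.0505 CPM in WT and to 33.4, 21.0 and 4.51 CPM in DM. WT1 was the highest and the other WT libraries the lowest of all, with the 3 DM libraries in between.

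WT1 alone decided the direction of the Cyp1a1 difference. The group means were 117 ± 202 CPM in WT and 19.6 ± 14.5 CPM in DM (SD, n = 3 per group), with DM at 0.168 times the WT mean. Without WT1, the DM mean was 146 times the WT mean. The summed counts of 1259 in DM against 5 in WT2 and WT3 gave a ratio of 150. Singly, DM1, DM2 and DM3 were 249, 157 and 33.6 times the mean of WT2 and WT3. That mean, 0.134 CPM, lay below the mean 3-count limit of 0.157 CPM. In females alone, with 548 against 5 counts, the ratio of summed counts was 98.1, and DM2 and DM3 had 453 and 95 counts. WT1 exceeded WT2 by 1609 times (628 to 5908) and DM1 by 10.5 times (9.72 to 11.3), and DM1 exceeded DM3 by 7.40 times (5.97 to 9.27). WT1 and DM1 were the only males, so sex cannot be told apart from these mice.

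Few genes behaved in WT1 as Cyp1a1 did. Of the 13346 tested genes, 7 were at least 10 times higher in WT1 than in WT2, WT3 and the 3-count limit, and Cyp1a1 had the highest level of these, ahead of Glipr2 (208 CPM in WT1) and Wdr72 (12.7 CPM). In 3 of the 7 all DM libraries lay between WT1 and the other WT libraries. In the opposite direction, 104 genes were at least 10 times lower in WT1 than in both other WT libraries. This comparison was chosen after the values had been seen.

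**Figure D2:**
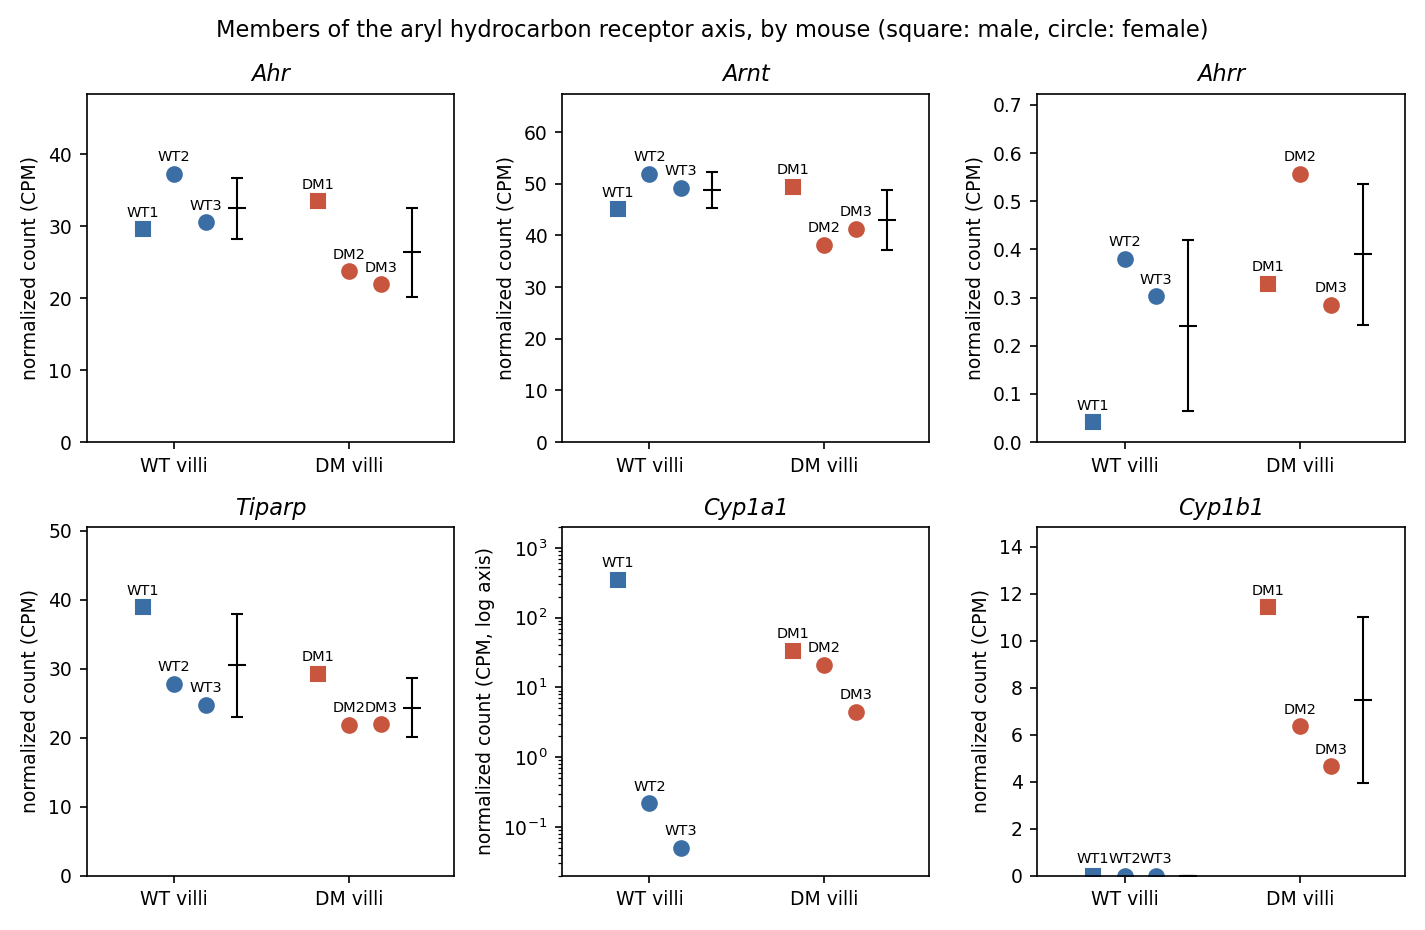
Normalized level of each member in the 6 mice, in CPM on the y axis (log axis for Cyp1a1 only) and by group on the x axis. Squares are males and circles females, and the bars beside the points give the mean and SD, left out for Cyp1a1. Cyp1b1 was at 0 in all WT mice and at 4.65 to 11.4 CPM in DM, and for Cyp1a1 the 3 DM mice lay between WT1 at 350 CPM and the other WT mice below 1 CPM.

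DM1 had the highest level of Ahr, Arnt, Tiparp, Cyp1a1 and Cyp1b1 among the 3 mutants, whereas DM2 had the highest Ahrr. In WT, the library with the most Cyp1a1, WT1, had the most Tiparp but the least Ahr, Arnt and Ahrr, and no Cyp1b1. With 3 libraries per group and 1 male in each, no correlation between members was computed.

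Levels were compared between genes per kilobase of exon, as CPM per kb. In WT the medians were 6.98 for Tiparp, 6.15 for Arnt, 4.95 for Ahr, 0.0831 for Cyp1a1, 0.0325 for Ahrr and 0 for Cyp1b1. The ranges of Tiparp and Arnt overlapped, as did those of Arnt and Ahr, while Cyp1a1 spanned 0.0193 to 134 and crossed every other member but Cyp1b1, which was at 0. In DM the order of the medians was Cyp1a1 at 8.02, Tiparp at 5.50, Arnt at 5.16, Ahr at 3.85, Cyp1b1 at 1.22 and Ahrr at 0.0353. Neighbours from Cyp1a1 down to Ahr overlapped, and Cyp1b1, at 0.893 to 2.19, lay below the lowest Ahr library of 3.55 and above the highest Ahrr library of 0.0597. Per kb, Cyp1a1 exceeded Cyp1b1 by 5.82, 6.57 and 1.93 times in DM1, DM2 and DM3. Ahr and Arnt thus stayed between 3.55 and 6.49 CPM per kb over all 6 libraries, whereas the CYP1 genes ran from undetected to the top of the order.

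The genes beside the CYP1 loci were read library by library. Cyp1a2, the paralog next to Cyp1a1 and itself an AHR target in liver, had 13, 0 and 0 counts in WT and 5, 10 and 6 counts in DM, too few for the test. It was detected in the same 4 libraries in which Cyp1a1 exceeded 90 counts, at a far lower level, and reads shared between the paralogs could count for either, since the handling of multiply mapped reads was not given in the sources used here. Csk, on the same side, fell in DM by 0.56 on the log2 scale (SE 0.11, adjusted p = 0.00505), and Edc3, on the other side, was not called (0.10 on the log2 scale, adjusted p = 0.695). Edc3 was at 32.3, 23.3 and 19.5 CPM in WT and at 28.6, 26.2 and 26.0 CPM in DM, so its libraries stood in the same order as those of Cyp1a1, over a much narrower range. Beside Cyp1b1, Fam82a1 fell from 12.9 ± 0.825 to 3.87 ± 0.786 CPM (SD, n = 3 per group, log2 fold change -1.74, adjusted p = 0.000532), and Atl2 on the other side did not pass the test (log2 fold change -0.17, adjusted p = 0.307). The next genes beyond Edc3 and Atl2 were both called lower, Clk3 at -0.56 (adjusted p = 0.00914) and Hnrpll at -0.40 (adjusted p = 0.0315).

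Markers of other cell types were read beside Cyp1b1, which mesenchymal cells are also known to express. In bulk samples, fewer cells of a type and less RNA per cell cannot be told apart. Of 6 fibroblast markers, 4 were in the table. Their summed counts were 0, 1 and 0 in WT and 3, 10 and 3 in DM. Cyp1b1 had 243, 137 and 98 counts in the same mutants. Col1a1 had 0, 8 and 0 counts in DM, and Col3a1 had 3, 1 and 0. The 4 smooth muscle markers summed to 0, 0 and 5 counts in WT and to 158, 9 and 4 counts in DM, and Myh11 had 47, 0 and 2 counts in DM. DM1 had both the most smooth muscle marker counts and the most Cyp1b1. Whether such cells contributed to the Cyp1b1 counts was not tested. Endothelial markers, 3 of 4 in the table, summed to 32 to 37 counts in WT and to 62 to 70 counts in DM, and neither of the 2 tested was called.

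**Figure D3:**
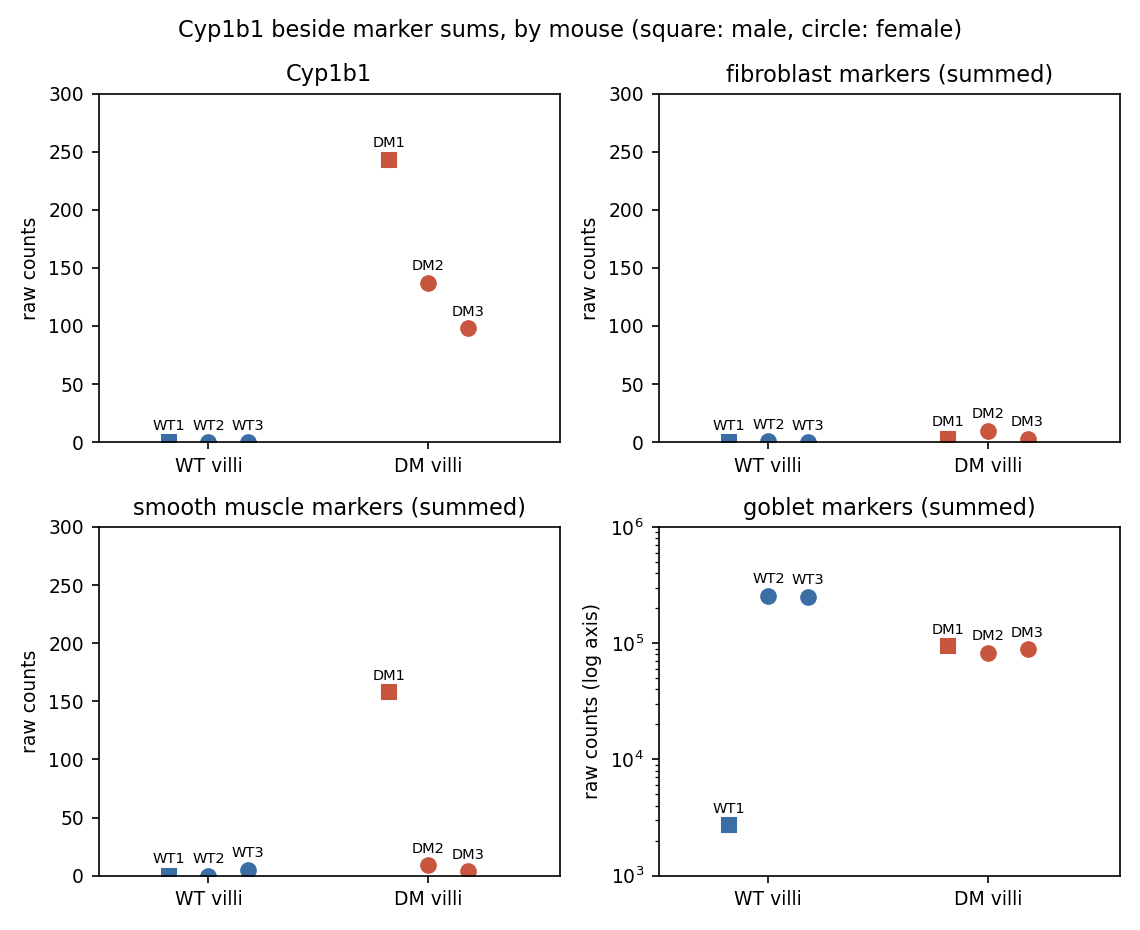
Raw counts of Cyp1b1 and summed raw counts of fibroblast, smooth muscle and goblet markers on the y axis (log axis for the goblet panel only), by group on the x axis. Each point is 1 mouse, with squares for males and circles for females. Fibroblast marker counts are 3, 10 and 3 in DM1, DM2 and DM3, where Cyp1b1 is at 243, 137 and 98, smooth muscle counts stand out in DM1 at 158, and goblet counts are lowest in WT1 at 2726.

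Intraepithelial lymphocytes also use AHR, and their markers were read beside Cyp1a1. Of 6 T and intraepithelial lymphocyte markers, 5 were in the table, and they summed to 66.1, 112 and 110 CPM in WT and to 49.0, 60.8 and 85.2 CPM in DM, with 2 lower and none higher. The sum was lowest in DM1, the mutant with the most Cyp1a1. Myeloid markers summed to 1.75 to 4.95 CPM in WT and 2.63 to 3.37 CPM in DM, and those of B and plasma cells to 7 to 11 counts in WT and 5 to 21 counts in DM. Of these, 2 myeloid markers passed the filter and were not called. Tuft cell markers fell in 4 of 4 genes, from sums of 81.9 to 111 CPM in WT to 11.9 to 13.4 CPM in DM. The 6 goblet markers had no call, with sums of 3851 to 4434 CPM in DM beside the wide WT range. The part of these cell types in the CYP1 values was not tested.

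Around the members, 34 genes of the pathway were followed in 4 groups, of which 30 were in the table and 23 were tested. Of these, 5 were called higher and 4 lower, against 19.7% and 17.0% of all tested genes. Their median log2 fold change was -0.01, beside 0.02 over all tested genes. The lower calls went down to 3 without DM1, 1 without DM2 and 2 without DM3, and the higher calls to 3 without DM1.

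Of the cytoplasmic complex that holds AHR, 3 chaperone genes were followed, and all 3 were called higher, with a median log2 fold change of 0.82. Hsp90ab1, a chaperone that keeps AHR ready for ligand, rose from 204 ± 25.7 to 458 ± 25.9 CPM (SD, n = 3 per group), a log2 fold change of 1.16 ± 0.13 (SE, adjusted p = 0.00037). Ptges3, the p23 co-chaperone, rose from 33.7 ± 2.30 to 59.5 ± 4.96 CPM (SD), a log2 fold change of 0.82 ± 0.12 (SE, adjusted p = 0.00125). Hsp90aa1 was called higher at 0.50 ± 0.16 (SE, adjusted p = 0.0352), and lost the call without WT2, WT3, DM1 or DM2 (adjusted p = 0.0608 to 0.107). The chaperones serve many other client proteins, and counts of Hsp90 genes may be shared with close copies.

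Of 9 bHLH-PAS relatives, 8 were in the table and 6 tested, with 2 lower, none higher and a median log2 fold change of -0.39. Npas2, a circadian clock factor, fell from 49.8, 29.3 and 38.5 CPM in WT to 26.8, 15.2 and 17.6 CPM in DM (log2 fold change -0.98 ± 0.26, adjusted p = 0.0192), and lost the call without DM2 (0.0653) or DM3 (0.0702). Hif1a, the hypoxia factor that shares ARNT, was called lower (-0.56 ± 0.19, adjusted p = 0.0458) although WT3 at 69.3 CPM lay within the DM range of 61.6 to 73.0 CPM, and with a library left out the call held only without WT3 (adjusted p = 0.0701 to 0.142 without any of the others). With all libraries, limma-voom (-0.53, adjusted p = 0.0652) and scaling by library size alone (-0.36, adjusted p = 0.146) also left Hif1a without a call. Epas1, the most abundant relative without a call, was at 91.1 ± 6.34 CPM in WT and 79.8 ± 12.4 CPM in DM (SD, n = 3 per group, log2 fold change -0.19, adjusted p = 0.308).

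Of 11 further genes reported as AHR targets, 9 were in the table and 7 tested, with 2 higher, 1 lower and a median log2 fold change of 0.06. Rnf43 and Znrf3 encode ubiquitin ligases that remove Wnt receptors from the cell surface, and both are also known Wnt target genes. Rnf43 rose from 58.0 ± 7.01 to 106 ± 10.5 CPM (SD, n = 3 per group), a log2 fold change of 0.87 ± 0.13 (SE, adjusted p = 0.00162). Znrf3 was at 1.83, 1.74 and 2.93 CPM in WT and at 5.87, 4.59 and 4.46 CPM in DM (log2 fold change 1.20 ± 0.29, adjusted p = 0.0135), and without DM1 its adjusted p was 0.0517. Xdh, xanthine dehydrogenase, fell from 1970, 2048 and 1839 CPM in WT to 1043, 849 and 1005 CPM in DM (log2 fold change -1.02 ± 0.13, adjusted p = 0.000647). Nfe2l2, the antioxidant response factor NRF2 and the most abundant target without a call, was at 276 ± 23.4 and 274 ± 40.8 CPM (SD, log2 fold change -0.01, adjusted p = 0.957). None of the 7 tested targets had the range of Cyp1a1 across the WT libraries, but Cyp1a1 was chosen for its spread.

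Enzymes that turn tryptophan into kynurenines, which can act as AHR ligands, had 10 of 11 genes in the table and 7 tested, with 1 lower, none higher and a median log2 fold change of -0.11. Ccbl1, which makes kynurenic acid from kynurenine, fell from 57.0, 29.2 and 25.1 CPM in WT to 12.7, 13.4 and 19.1 CPM in DM (log2 fold change -1.30 ± 0.33, adjusted p = 0.0189), with adjusted p = 0.0735 without DM1 and 0.0848 without DM2. WT1 was the highest library for Ccbl1, and without it the log2 fold change was -0.85 (adjusted p = 0.00713). Ido1, the first and rate-limiting enzyme of the route outside the liver, was the most abundant without a call. It had 16, 822 and 1100 counts in WT and 119, 81 and 135 counts in DM. WT1, highest for Cyp1a1, was lowest for Ido1. Among the mutants DM1 was highest for Cyp1a1, whereas DM2 was lowest for Ido1. Ido1 was one of the 104 tested genes at least 10 times lower in WT1 than in both other WT libraries. Its log2 fold change was -2.68 ± 1.43 (SE, adjusted p = 0.218), and without WT1 it was -3.26 (adjusted p = 8.17e-06).

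**Figure D4:**
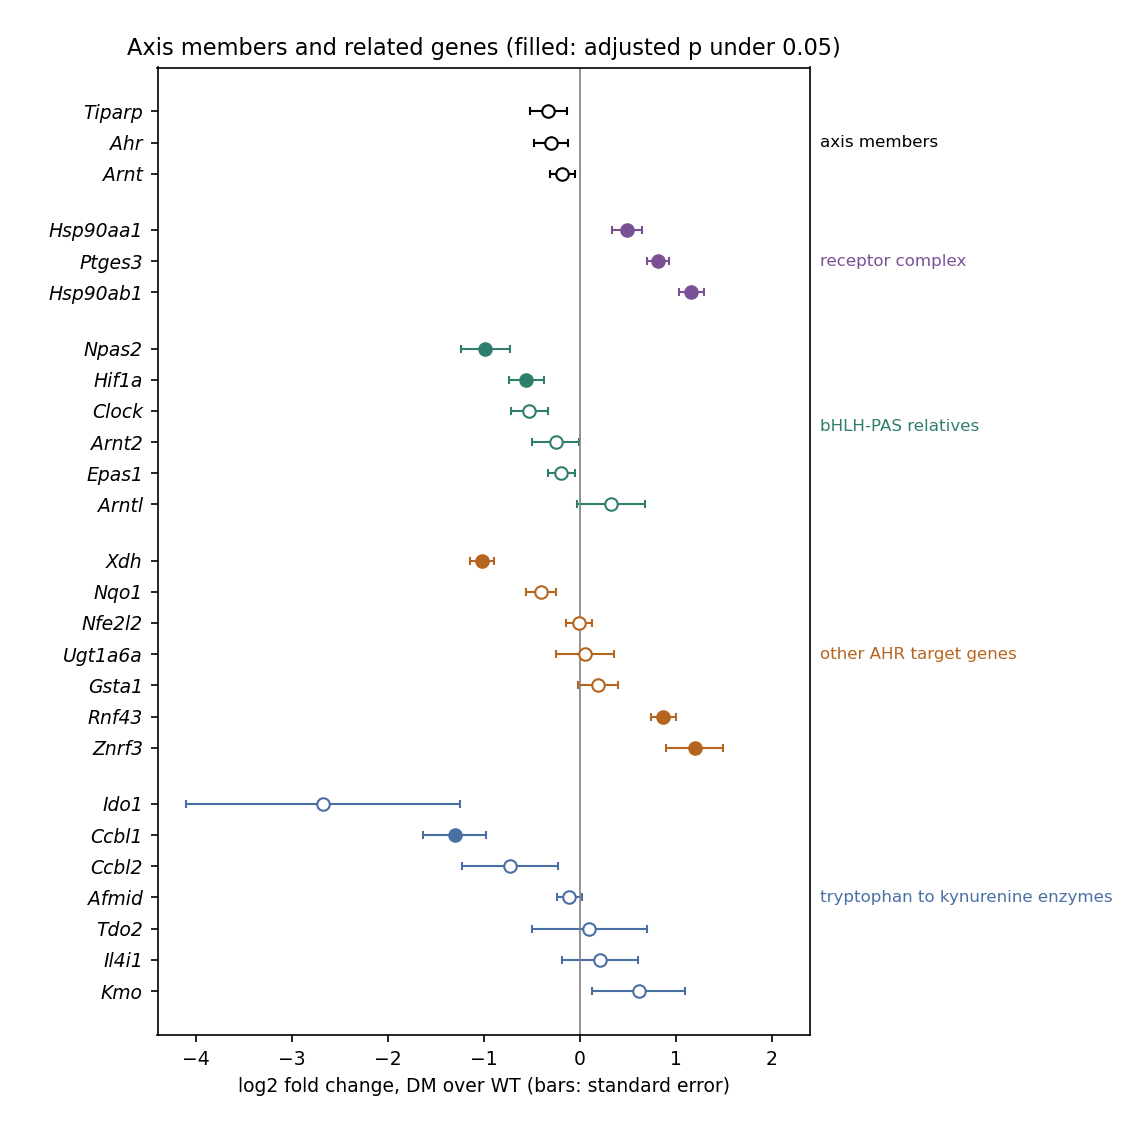
Log2 fold change of DM over WT villi on the x axis for the 3 tested members outside the CYP1 genes and for 23 pathway genes on the y axis, in their groups. Bars are standard errors from edgeR and filled points have an adjusted p under 0.05. The members Ahr, Arnt and Tiparp lie between -0.33 and -0.18 with open points, and the 3 chaperone genes of the receptor complex have filled points to the right of 0.

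Profiles most like those of the CYP1 genes were sought among the 13346 tested genes, by the root mean square (RMS) difference of centred log2 CPM over the 6 libraries. For Cyp1a1 the closest 5 were an unannotated feature and the genes Acta1, Cyp4a10, Wdr72 and Dgkh, at 1.94 to 2.74 log2 units, against a median of 3.91 over all tested genes. Acta1, skeletal muscle actin, was at 30.6, 3.65 and 1.87 CPM in WT and at 20.0, 13.8 and 10.3 CPM in DM. Cyp4a10, a fatty acid hydroxylase induced by PPARα, was at 5.12, 0.762 and 0.354 CPM in WT and at 12.5, 5.24 and 3.46 CPM in DM. Like Cyp1a1, both were higher in WT1 and in every DM library than in WT2 and WT3, a likeness that their choice favours. The closest profile of all was off by 1.94 log2 units.

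For Cyp1b1 the closest 4 were Penk, an unannotated feature, Pla2g5 and Mt2, at 0.77 to 0.84 log2 units, against a median of 3.13. Penk, the enkephalin precursor, had 0, 0 and 1 counts in WT and 156, 318 and 311 counts in DM. Mt2, a metallothionein that binds metals, was at 1.25 to 3.10 CPM in WT and 55.3 to 132 CPM in DM. Pla2g5, a secreted phospholipase, was at 0.208 to 1.57 CPM in WT and 57.1 to 76.5 CPM in DM. All of these genes were low in WT and high in every DM library, which follows from their choice by profile. DM1, highest for Cyp1b1, was the lowest mutant for Penk.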

How the data were processed

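Polyadenylated RNA of villus epithelium, released with EDTA and caught on a filter, was sequenced as paired-end reads. Per the labels, the authors used HISAT2 against the mm9 assembly and then featureCounts. The deposited values are raw counts for each gene and mouse, which were neither normalized nor pooled. Strand setting and handling of multiply mapped reads were not given in the sources used here. Of 20409 features, 20073 carried Ensembl identifiers, 20032 of which were named through GENCODE vM1 on the same build. The 336 numbered features have no annotation.

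Groups, sex and replicate numbers came from the labels. Genes were filtered with filterByExpr, scaled by TMM and tested with edgeR 4.0.16 (robust quasi-likelihood, limma 3.58.1, R 4.3.3) with Benjamini-Hochberg adjustment at 0.05. p-values rest on the spread between 3 mice per group, with variance estimates that share information across genes. The code was checked on simulated counts. Totals of 19678507 to 26337318 counts place 3 counts at 0.125 to 0.163 CPM, and intervals are exact binomial at 95%. Alternatives were DESeq2 1.42.0, limma-voom, other scalings and filters, a replicate block, sex as a covariate and leaving out each library. Comparisons of females alone were added after the data were seen. Same-numbered mice did not deviate together, so the numbers were not taken as pairs. These are the numbers of the labels, and a sample sheet of the study numbers the mice differently.

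The members, the gene lists and the marker lists were chosen with earlier results of these data known. Named were the members, Smad4, every called pathway gene and the most abundant uncalled gene of each list, the 5 closest profiles of each CYP1 gene, and markers at 0 or leading a sum. Neighbours of the CYP1 genes, genes high in WT1 and 2 further marker genes were added after their values had been seen. A few genes that these rules and lists would name are not reported here, and the pathway counts leave them out. Motif counts used mm9 and the RefSeq promoter table. The study's own alignments and reads were not analysed here.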

Additional observations from a re-analysis of the deposited data

How the results depend on the processing

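Genes called numbered 1812 to 2783 higher and 1630 to 2361 lower when each library was left out in turn, and at a log2 fold change of 2 or more 335 to 522 higher and 289 to 339 lower, beside 406 and 302 with all libraries. A fold threshold of 1 in place of 2 on the log2 scale gave 1454 higher and 832 lower. Scaling by library size alone gave 1425 lower calls in all and log2 fold changes of 0.01 for Arnt, 0.0045 for Epas1, 0.19 for Nfe2l2 and 0.0857 for Afmid, all of which had been below 0, as the median of all tested genes moved up to 0.22. Leaving out libraries gave 3 to 5 higher and 1 to 4 lower calls among the pathway genes, and log2 fold changes of -0.50 to -0.18 for Ahr, the lowest without DM1. Of genes that changed sign without a library, none of them called, Nfe2l2 ran from -0.11 to 0.10 (the highest without DM3), Ugt1a6a from -0.20 (without DM1) to 0.30, Gsta1 from -0.0104 (without WT3) to 0.40, and Tdo2 from -0.31 (without WT3) to 0.53. The DM over WT ratio of Cyp1a1 ran from 0.110 to 146 without single libraries, the highest without WT1, and it was 95.3 among females alone, where Cyp1b1 kept a bound of 35.0. For both genes no test was made, so DESeq2, limma-voom, the filters, the block and sex as a covariate gave no value. DESeq2 called 2628 higher and 2524 lower. With the replicate block, 2084 were called higher and 1750 lower, Ahr was at -0.32 (adjusted p = 0.261), Hsp90aa1 lost its call (0.0571) and Clock gained one (0.0488); same-numbered libraries correlated in their deviations at r = 0.0224, -0.109 and 0.0123, and 1 of 6 libraries correlated best with its own number. Among alternatives for log2 fold changes of single pathway genes and of the members other than Cyp1a1 and Cyp1b1, 326 kept direction and side of the threshold, 18 lost a call, 9 gained a call and 12 changed sign. Of the gains, 6 were those of Clock, which edgeR left uncalled with TMM, the filter and no covariate (-0.52, adjusted p = 0.0606). Apart from the library left out or the scaling itself, the cause was not tested. Depth limits Ahrr, Cyp1a2 and the WT level of Cyp1b1.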
